A study of Mus musculus with 12 samples.

Results

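The genes described here encode the chains of the fibrillar collagens: Col1a1, Col1a2, Col3a1, Col5a1, Col5a2, Col5a3, Col11a1 and Col27a1. They were taken by symbol from the deposited count tables, and each symbol stood on 1 of the 23282 rows, so that 8 genes of 23282 are covered. The RNA came from C22 cells in 4 groups of 3 libraries, 12 in all, and was counted with QuantSeq, an mRNA-seq method that reads the 3′ ends of transcripts. NC cells carried a negative control, siPdcd5 cells had Pdcd5 knocked down by siRNA, and each of these was measured without TGF-β1 and with 20 ng/ml TGF-β1 for 24 hours (NC + TGF-β1 and siPdcd5 + TGF-β1). All groups shared the line, its terminal differentiation, and a period of serum starvation before TGF-β1 was added. C22 is a cloned, conditionally immortal mouse lung line labelled as Clara (club) cells, the secretory cells of the bronchioles, and it came from H-2Kb-tsA58 transgenic mice. Being 1 clone, it cannot show how club cells vary, and because the knockdown was compared with the negative control alone, loss of Pdcd5 and other effects of its siRNA cannot be told apart. The study asked what PDCD5 does in the response of club cells to TGF-β1.

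Fibrillar collagens are the rope-like proteins that give connective tissue its tensile strength. Their chains fold into procollagen triple helices in the endoplasmic reticulum, are exported, lose their propeptides outside the cell, and assemble into fibrils that are then cross-linked. Type I collagen is usually built of chains from both Col1a1 and Col1a2. Col3a1 makes the type III collagen of elastic tissues such as lung and vessel wall, the Col5a1, Col5a2 and Col5a3 chains make the type V collagens that start fibrils and limit their width, and Col11a1 and Col27a1 are best known from cartilage. TGF-β is a known inducer of collagen genes, and fibrillar collagens accumulate in the scarred lung, mostly from fibroblasts.

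Total counts ran from 12809857 to 17714828 per library, and 3 counts, the floor used for a gene near 0, equalled 0.165 to 0.239 CPM (counts scaled to library size, here with TMM factors, the trimmed mean of M values). Pdcd5 was at 73.5, 65.8 and 65.1 CPM in NC and 21.2, 20.0 and 22.1 CPM in siPdcd5, and at 66.3, 69.7 and 67.5 CPM in NC + TGF-β1 and 24.1, 21.8 and 26.3 CPM in siPdcd5 + TGF-β1, so that all 12 libraries matched their knockdown labels. The defining club cell markers were absent: Scgb3a2 and Cyp2f2 had no count in any library and Scgb1a1 had at most 1. Of the 6 club markers, Cbr2 and Aldh1a1 were measured, and the list summed to 709 to 718 CPM in NC. With TGF-β1 it summed to 314 to 426 CPM in NC cells and 259 to 273 in siPdcd5 cells, and siPdcd5 alone had 387 to 463. Aldh1a1 made up most of these differences. It was lower in both TGF-β1 and both knockdown comparisons (edgeR, adjusted p under 0.05), while Cbr2 passed in none. The epithelial marker Epcam had at most 1 count per library, whereas the epithelial keratins Krt8 and Krt18 averaged 189 and 495 CPM in NC. The 7 epithelial markers summed to 676 to 699 CPM in NC and 549 to 700 in siPdcd5, and with TGF-β1, where the collagens were higher too, to 1242 to 1678 CPM in NC cells and 1586 to 1647 in siPdcd5 cells. Krt8 and Krt18 carried these sums and passed as higher in both TGF-β1 comparisons. Cdh1 averaged 3.18 CPM in NC and 2.12 in NC + TGF-β1, and Krt7 2.45 and 2.36, and neither passed in any comparison. NC + TGF-β1 replicate 2 stood furthest from its group, with a chi-square per degree of freedom of 62.7 against replicate 3, where replicates 1 and 3 gave 12.1, and siPdcd5 replicate 1 gave 34.6 and 26.8 against its group, whose other pair gave 10.2. Nothing states that replicates were separate cultures, so p-values measure the spread between these libraries, which may be technical.

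The RefSeq promoters of 3 members are shown because their genes answered TGF-β1 most, least and with the smallest error among the members with a promoter in the table, which held 6 of the 8 (not Col1a1 or Col5a2). Each is the 250 bases before the RefSeq start on the plus strand of GRCm38.p6, 5′ to 3′. Capitals mark the SMAD box CAGAC, a short core of SMAD-binding DNA, and the CCAAT box CCAAT, on either strand (GTCTG and ATTGG on the other).
Col1a2, chr6:4505368-4505617: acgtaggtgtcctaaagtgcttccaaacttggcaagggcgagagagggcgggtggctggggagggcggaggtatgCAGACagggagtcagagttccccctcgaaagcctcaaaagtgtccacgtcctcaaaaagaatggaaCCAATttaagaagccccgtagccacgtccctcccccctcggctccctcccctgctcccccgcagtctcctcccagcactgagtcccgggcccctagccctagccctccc
Col3a1, chr1:45311288-45311537: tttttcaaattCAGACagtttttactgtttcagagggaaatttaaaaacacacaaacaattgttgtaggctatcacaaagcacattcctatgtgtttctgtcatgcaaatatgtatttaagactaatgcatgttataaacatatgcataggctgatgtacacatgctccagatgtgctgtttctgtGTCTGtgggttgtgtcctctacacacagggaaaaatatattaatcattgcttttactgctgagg
Col5a1, chr2:27886175-27886424: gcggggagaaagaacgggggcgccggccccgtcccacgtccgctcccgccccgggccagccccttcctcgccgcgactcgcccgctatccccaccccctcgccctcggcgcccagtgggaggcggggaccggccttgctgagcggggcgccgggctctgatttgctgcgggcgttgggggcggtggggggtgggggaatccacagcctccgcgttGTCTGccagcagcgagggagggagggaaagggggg
CAGAC was found in 5 of the 6 member promoters, all but that of Col5a3, and in 42.2% of 32851 promoters of the same length. CCAAT was found in those of Col1a2, Col11a1 and Col5a3, and in 33.8% of all. The SMAD box lay 175 bases before the start in Col1a2 and 35 bases before it in Col5a1, while Col3a1 held 2, at 239 and 64 bases before it. The 3 windows differed in composition, with 62.0% G and C in Col1a2, 35.2% in Col3a1 and 76.4% in Col5a1. The RefSeq start of Col1a2 lies inside the longer gene span of the annotation given further on. These matches describe the letters and show no binding.

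TGF-β1 raised all 8 genes in NC cells and again in siPdcd5 cells. In NC cells 8 of 8 passed the test as higher (adjusted p under 0.05, edgeR quasi-likelihood test with Benjamini-Hochberg adjustment over 12425 genes), where 8.57% of all genes did, and in siPdcd5 cells 8 of 8 did, where 8.50% did. The members were chosen with earlier results of these data known, so these counts describe them and are no test of the family. The median log2 fold change of the 8 was 1.49 in NC cells and 1.36 in siPdcd5 cells, beside 0.005 and -0.03 over all genes tested. In both comparisons, every treated library stood above every untreated one for every member. The share of all genes that separate in this way was not computed, so this only describes the members. Col11a1 entered the test only through the groups with TGF-β1, where it was high, so its calls as higher are tied to that selection. The 8 genes together took 4161 to 4435 CPM in NC and 2827 to 3373 in siPdcd5. With TGF-β1 they took 8501 to 9252 CPM in NC cells and 6466 to 6881 in siPdcd5 cells. These are levels of RNA per library, and more RNA per cell cannot be told apart from more cells that make it.

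Col1a1, the major chain of type I collagen, was at 2639, 2729 and 2790.5 CPM in NC and at 5947, 5868 and 6542 CPM in NC + TGF-β1. It was at 1695, 2146 and 2035 CPM in siPdcd5 and at 4629, 4446 and 4595 CPM in siPdcd5 + TGF-β1. No 2 groups overlapped, and the order from high to low was NC + TGF-β1, siPdcd5 + TGF-β1, NC and siPdcd5. TGF-β1 raised it by 1.17 ± 0.10 (log2 fold change ± SE, 2.25-fold, adjusted p = 1.2e-06) in NC cells and by 1.22 ± 0.10 (adjusted p = 8.7e-07) in siPdcd5 cells.

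Col1a2, the partner chain of type I collagen, was at 3.65, 3.49 and 3.61 CPM in NC and at 20.0, 32.9 and 21.1 CPM in NC + TGF-β1. In siPdcd5 it was at 15.1, 11.3 and 9.79 CPM and in siPdcd5 + TGF-β1 at 38.4, 37.0 and 43.0 CPM. Its order was unlike that of Col1a1: NC was lowest and siPdcd5 + TGF-β1 highest, again with no overlap between any groups. TGF-β1 raised it by 2.78 ± 0.22 (6.88-fold, adjusted p = 6.1e-07) in NC cells, the largest fitted change among the members there, and by 1.72 ± 0.19 (adjusted p = 1.8e-05) in siPdcd5 cells. The change in NC cells was 2.52 without NC + TGF-β1 replicate 2, the library with 32.9 CPM.

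Col3a1, the single chain of type III collagen, was at 1009, 1031 and 1084 CPM in NC and at 1427, 1602 and 1449 CPM in NC + TGF-β1. It was at 684, 795 and 706 CPM in siPdcd5 and at 1229, 1062 and 1141 CPM in siPdcd5 + TGF-β1. The siPdcd5 + TGF-β1 libraries thus reached the level of untreated NC, with which they overlapped. Its rise was the smallest of the 8, at 0.52 ± 0.09 (1.43-fold, adjusted p = 0.00105) in NC cells and 0.65 ± 0.09 (adjusted p = 1.7e-04) in siPdcd5 cells.

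Of the type V chains, Col5a1 was at 153, 156 and 172 CPM in NC and at 440, 490 and 483 CPM in NC + TGF-β1. In siPdcd5 it was at 154, 146 and 163 CPM and in siPdcd5 + TGF-β1 at 443, 436 and 429 CPM. The libraries with TGF-β1 overlapped each other, as did those without, so that its groups fell into a low and a high level. Its rise was 1.55 ± 0.08 (2.94-fold, adjusted p = 1.9e-08) in NC cells and it rose 2.82-fold (SE 0.08 on the log2 scale, adjusted p = 3.5e-08) in siPdcd5 cells, with the smallest SE among the members.

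Col5a2, the chain that joins 2 Col5a1 chains in the common type V trimer, was at 304, 352 and 325 CPM in NC and at 525, 766 and 615 CPM in NC + TGF-β1. It was at 194, 203 and 159 CPM in siPdcd5 and at 384, 333 and 362 CPM in siPdcd5 + TGF-β1. As for Col3a1, siPdcd5 + TGF-β1 overlapped untreated NC. TGF-β1 raised it by 0.96 ± 0.13 in both NC cells (adjusted p = 1.3e-04) and siPdcd5 cells (adjusted p = 1.5e-04).

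Col5a3, a rarer type V chain, was at 8.21, 6.68 and 6.45 CPM in NC and at 22.8, 21.9 and 27.9 CPM in NC + TGF-β1. In siPdcd5 it was at 9.45, 8.38 and 9.79 CPM and in siPdcd5 + TGF-β1 at 33.8, 28.8 and 27.2 CPM. Its lowest library with TGF-β1 stood at over 2 times its highest without. The siPdcd5 libraries lay above NC, while both groups with TGF-β1 overlapped. It rose by 1.77 ± 0.15 (3.40-fold, adjusted p = 1.3e-06) in NC cells and by 1.70 ± 0.14 (adjusted p = 1.4e-06) in siPdcd5 cells.

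Col11a1, a type XI chain that can also join type V chains, was near the floor without TGF-β1. NC had 5, 9 and 6 counts, NC + TGF-β1 had 53, 31 and 47, siPdcd5 had 0, 0 and 1, and siPdcd5 + TGF-β1 had 21, 22 and 33. TGF-β1 raised it 6.56-fold in NC cells by the scaled ratio of the summed counts (exact 95% interval 4.08 to 11.1, for counting error only), and the fitted rise was 2.70 ± 0.43 (adjusted p = 2.5e-04). In siPdcd5 cells the ratio was 84.0 with an interval from 14.6 to 3359, because it rests on 1 count against 76 (adjusted p = 2.8e-05).

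Col27a1, the chain of type XXVII collagen, was at 44.9, 47.3 and 52.3 CPM in NC and at 116, 159 and 111 CPM in NC + TGF-β1. It was at 75.9, 63.4 and 54.3 CPM in siPdcd5 and at 123, 121 and 129 CPM in siPdcd5 + TGF-β1. The groups with TGF-β1 overlapped, and NC lay below all others. Its rise was 1.42 ± 0.14 (2.67-fold, adjusted p = 6.9e-06) in NC cells and 0.95 ± 0.14 (adjusted p = 2.7e-04) in siPdcd5 cells.

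**Figure D1:**
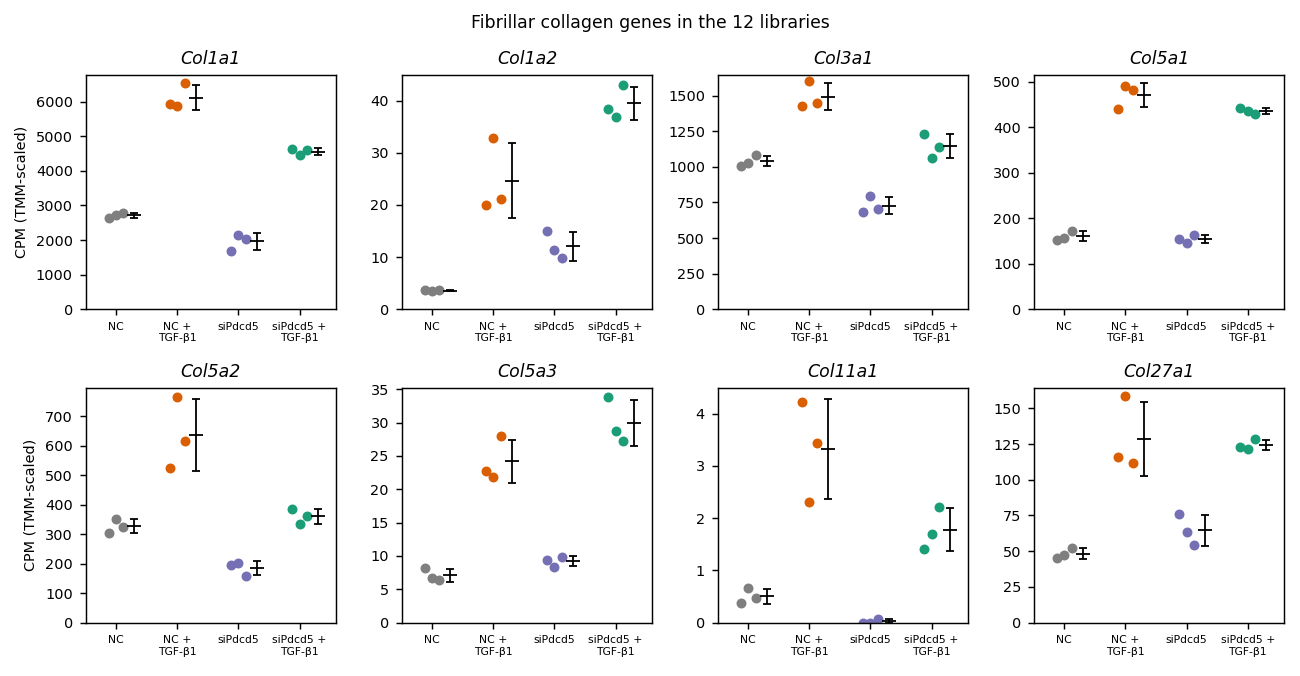
Level of each fibrillar collagen gene in CPM (y axis from 0, TMM-scaled) in the 3 libraries of each group (points), with the group mean and SD beside them (black bars). All 8 genes stood higher with TGF-β1 than without in both NC and siPdcd5 cells, and Col1a2 is lowest in NC where Col1a1, Col3a1, Col5a2 and Col11a1 are lowest in siPdcd5.

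Knockdown without TGF-β1 did not move the members one way. In siPdcd5 against NC, Col1a1, Col3a1, Col5a2 and Col11a1 passed the test as lower, 4 of 8 where 2.54% of all genes did, and Col1a2 passed as higher, 1 of 8 where 0.901% did. Col5a1, Col5a3 and Col27a1 did not pass. Col11a1 entered the test only through its counts in the groups with TGF-β1. A fit of the 6 libraries compared here did not test it, and called 3 lower and 1 higher of the 7 members tested. The median over the 8 was -0.26, beside 0.02 over all genes.

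Col5a2 fell by 0.82 ± 0.13 (1.77-fold, adjusted p = 0.00286), Col3a1 fell by 0.52 ± 0.09 (adjusted p = 0.00558) and Col1a1 fell by 0.47 ± 0.10 (adjusted p = 0.0148), each with all siPdcd5 libraries below all NC libraries. The call for Col1a1 was lost without NC replicate 2 (-0.47, adjusted p = 0.0668) and without NC replicate 3 (-0.46, adjusted p = 0.0687). Col11a1 had 1 count in siPdcd5 against 20 in NC, a scaled ratio 23.8-fold lower (exact 95% interval 3.81 to 987, adjusted p = 0.0154). Its call was lost without NC replicate 2 (adjusted p = 0.0713), siPdcd5 replicate 1 (adjusted p = 0.0507) or siPdcd5 replicate 2 (adjusted p = 0.0629), and the gene lies at the floor in siPdcd5.

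Col1a2 went the other way, rising by 1.74 ± 0.22 (3.35-fold, adjusted p = 6.3e-04), the 31st largest rise among the 12425 genes. It passed the test in 20 of 20 alternative settings, with log2 fold changes from 1.55 to 1.87. Its raw counts were 48, 47 and 47 in NC and 204, 205 and 152 in siPdcd5. Col27a1 (0.42 ± 0.14, adjusted p = 0.144) and Col5a3 (0.37 ± 0.15, adjusted p = 0.255) had all siPdcd5 libraries above all NC libraries without passing, and Col27a1 passed without NC + TGF-β1 replicate 2 (adjusted p = 0.0297). For Col5a1 the difference was -0.06 (95% interval -0.23 to 0.12).

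With TGF-β1 present, the knockdown left 2 members past the test. In siPdcd5 + TGF-β1 against NC + TGF-β1, Col5a2 and Col1a1 were lower, 2 of 8 where 1.22% of all genes passed as lower, and 0 of 8 were called higher where 0.330% of all genes were. The median over the 8 was -0.25, beside -0.02 over all genes. At an unadjusted p under 0.05 edgeR had 4 of 8 lower and 2 of 8 higher, the higher ones being Col1a2 and Col5a3, and DESeq2 called 3 lower and 1 higher. Each group serves in 1 knockdown and 1 TGF-β1 comparison, so the comparisons share their libraries.

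Col5a2 fell by 0.82 ± 0.13 (1.77-fold, adjusted p = 0.00525), with 333 to 384 CPM in siPdcd5 + TGF-β1 and 525 to 766 CPM in NC + TGF-β1. Leaving out NC + TGF-β1 replicate 2, the highest library, gave -0.66 (adjusted p = 0.00309), and in a fit of these 6 libraries alone the call was lost (adjusted p = 0.0574). Col1a1 fell by 0.43 ± 0.10 (1.34-fold) at an adjusted p of 0.0455, and passed in 7 of 20 alternative settings, with adjusted p from 7.8e-04 to 0.198. Its value changed little between them, from -0.45 to -0.38. Of the 12 fits that leave out 1 library, the call held in 3, those without NC + TGF-β1 replicate 2 (0.0224), siPdcd5 replicate 1 (0.0139) or siPdcd5 replicate 2 (0.0394), and was lost without any of the other 9 libraries (adjusted p 0.0634 to 0.198).

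Among members that did not pass, Col3a1 had all siPdcd5 + TGF-β1 libraries below all NC + TGF-β1 libraries, with a difference of -0.38 ± 0.09 (adjusted p = 0.0528), and it passed without siPdcd5 replicate 1 (adjusted p = 0.0471) or replicate 2 (adjusted p = 0.0473), and with DESeq2 (adjusted p = 0.00198). Col11a1 did too, with 76 counts against 131 (ratio 0.538, exact 95% interval 0.400 to 0.719 for counting error only, fitted -0.90 ± 0.34, adjusted p = 0.231). Col1a2 had all siPdcd5 + TGF-β1 libraries above all NC + TGF-β1 libraries, with a difference of 0.68 ± 0.18 (adjusted p = 0.0861). Without NC + TGF-β1 replicate 2 that difference was 0.94 (adjusted p = 0.00243), without siPdcd5 replicate 1 it was 0.69 (adjusted p = 0.0484), and DESeq2 gave an adjusted p of 0.0307. The remaining 3 were Col5a3 at 0.31 (95% interval 0.01 to 0.60), Col5a1 at -0.11 (-0.29 to 0.07) and Col27a1 at -0.05 (-0.35 to 0.25).

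**Figure D2:**
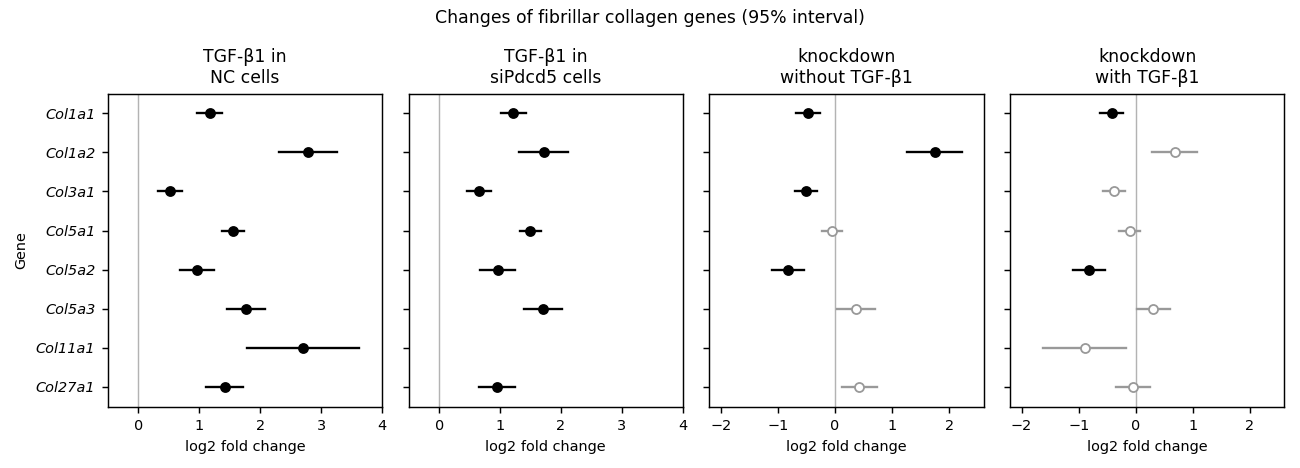
Log2 fold change of each gene (x axis, points) with its 95% interval (lines) in the 4 comparisons, black and filled where the adjusted p was under 0.05 and grey and open where not. All points drawn lie right of 0 for TGF-β1, while under knockdown Col1a2 lies right of 0 and Col1a1, Col3a1 and Col5a2 left of it. Col11a1 is drawn only where both groups had more than 1 count.

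Whether the TGF-β1 response itself differed between NC and siPdcd5 cells was tested as the interaction of both factors. None of the 8 passed (3 at an unadjusted p under 0.05, and 0 by DESeq2), as none of all 12425 genes did (0% called, smallest adjusted p 0.213, edgeR), though 638 genes had an unadjusted p under 0.05 and DESeq2 called 13 genes. The largest interaction with a usable error was that of Col1a2, whose rise was smaller in siPdcd5 cells by 1.07 ± 0.29 on the log2 scale (95% interval -1.68 to -0.45, unadjusted p = 0.0023, adjusted p = 0.736). For Col27a1 it was -0.47 (95% interval -0.90 to -0.04, adjusted p = 0.951). For Col11a1 it went the other way, at 3.19 (95% interval 0.06 to 6.33, unadjusted p = 0.0047, adjusted p = 0.806), which rests on 1 count in siPdcd5. Its interval comes from the SE of the fit (1.46) and its p from the quasi-likelihood F test, which implies an SE of 0.95, so the 2 do not match. The intervals of Col1a1 (-0.25 to 0.34), Col3a1 (-0.14 to 0.41), Col5a1 (-0.31 to 0.20), Col5a2 (-0.40 to 0.40) and Col5a3 (-0.50 to 0.38) include 0. These are intervals of a difference of log2 fold changes, and they do not show that the responses were equal.

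The genes of the chains of type I collagen did not move in step, so the ratio of their reads was compared within each library, where library scaling does not enter. The libraries had 723, 783 and 773 Col1a1 reads per Col1a2 read in NC and 298, 178 and 310 in NC + TGF-β1. The siPdcd5 libraries had 113, 190 and 208, and those with TGF-β1 besides had 121, 120 and 107. NC stood above every other group, and siPdcd5 overlapped NC + TGF-β1 and siPdcd5 + TGF-β1. The mean log2 ratio, with a prior count of 2, was 9.51 ± 0.06 (SD, n = 3) in NC and 7.34 ± 0.47 in siPdcd5. With TGF-β1 it was 7.98 ± 0.44 in NC cells and 6.85 ± 0.10 in siPdcd5 cells. The ratio dropped by 2.17 on the log2 scale with the knockdown alone, by 1.53 with TGF-β1 in NC cells, by 1.13 with the knockdown under TGF-β1 and by 0.49 with TGF-β1 in siPdcd5 cells. The two-sided exact permutation p was 0.1, 0.1, 0.1 and 0.3 in that order, and 0.1 is the smallest p that 3 libraries against 3 allow. In both knockdown comparisons all siPdcd5 libraries lay below NC for Col1a1 and above it for Col1a2. That separation fixed the p at 0.1 there, so the test adds nothing to it. QuantSeq counts about 1 read per transcript near its 3′ end, so counts do not scale with length, but capture can differ between genes, and these are ratios of reads, not of chains.

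**Figure D3:**
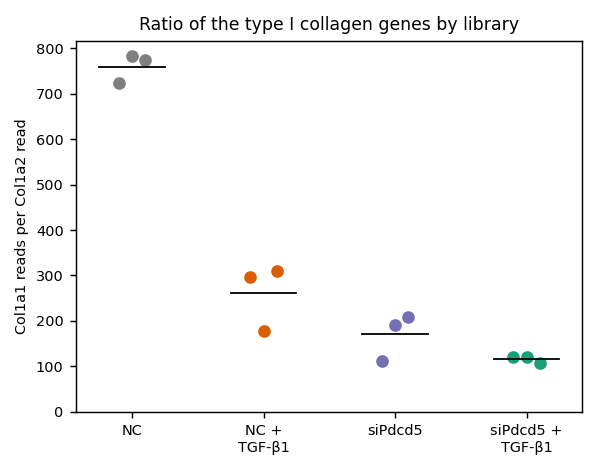
Col1a1 reads per Col1a2 read (y axis from 0) in each library (points) of the 4 groups, with the group mean (line). NC libraries lie at 723 to 783 and all 9 other libraries at 107 to 310.

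As shares of the reads of the 8 genes, Col1a1 took 63.1% ± 0.25 (SD, n = 3) in NC and 68.8% ± 2.7 in NC + TGF-β1, and Col3a1 took 24.2% ± 0.32 and 16.8% ± 1.1. In siPdcd5 cells Col1a1 took 62.8% ± 2.5 and 68.1% ± 0.77 without and with TGF-β1, and Col3a1 took 23.4% ± 0.85 and 17.1% ± 0.73. The lower share of Col3a1 with TGF-β1 thus stood beside a higher level of the gene, since it rose less than the others. Col1a2 took 0.0832% in NC and 0.590% in siPdcd5 + TGF-β1.

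Across the 12 libraries the log2 CPM of the members formed patterns that followed the orders above. Pearson's r was 0.98 between Col3a1 and Col5a2, 0.97 between Col1a1 and Col11a1, 0.96 between Col5a1 and Col5a3 and 0.94 between Col1a2 and Col27a1. It was 0.37 between Col1a2 and Col3a1 and 0.36 between Col1a2 and Col5a2. All points share their libraries and the 4 groups, so these values describe the data and carry no test. Among 9121 genes with a mean log2 CPM of 3 or more, Col1a1 was most like Timp3 (r = 0.998), a tissue inhibitor of metalloproteinases, and Col1a2 was most like Hk2 (0.980), a hexokinase. Col3a1 and Col5a2 were both most like Thbs1 (0.991 and 0.994), the matrix glycoprotein thrombospondin, and P4ha1, a subunit of collagen prolyl hydroxylase, came next for Col5a2 (0.987). Col5a1 was most like Foxq1 (0.995), Col5a3 like 3300005D01Rik (0.988), Col11a1 like Zyx (0.983) and Col27a1 like Ccl7 (0.985).

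The members lie on 7 chromosomes of GRCm38. Col3a1 (chr1:45311538-45349706, plus strand) and Col5a2 (chr1:45374321-45503282, minus strand) are neighbours with 24615 bases between their converging 3′ ends. Col1a1 lies at chr11:94936224-94953042, Col1a2 at chr6:4504814-4541544, Col5a1 at chr2:27886425-28039514, Col11a1 at chr3:114030540-114220718 and Col27a1 at chr4:63214004-63334991, all on the plus strand, and Col5a3 at chr9:20770050-20815067 on the minus strand. Whether counting used strand is not given in the sources used here, and exons of Col5a1 overlap those of the opposite-strand transcripts 2810430I11Rik and Gm13372, from which its reads cannot then be told apart. Of the protein-coding genes on either side of Col1a2, Casd1 was at 0.10 (adjusted p = 0.757) and Bet1 at -0.30 (adjusted p = 0.369) in the knockdown without TGF-β1. With TGF-β1 in NC cells Casd1 rose by 0.42 (adjusted p = 0.0242) and Bet1 was at 0.21 (adjusted p = 0.412).

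The other fibrillar collagen genes in the tables were at low counts. Col2a1, Col11a2 and Col24a1 had at most 19, 12 and 11 counts in any library, Col2a1 alone was tested, and it passed in no comparison. The genes that make, process, cross-link, bind and degrade fibrillar collagen were described from 8 lists holding 73 genes in the tables, of which 52 were tested. In NC cells TGF-β1 raised 26 and lowered 7 of them, beside 8.57% called higher and 6.77% called lower among all genes, and their median was 0.45. In siPdcd5 cells it raised 23 and lowered 5, beside 8.50% and 7.61%, with a median of 0.35. The knockdown raised 1 and lowered 9 without TGF-β1, beside 0.901% and 2.54%, and raised 1 and lowered 7 with it, beside 0.330% and 1.22%, with medians of -0.12 and -0.25, and none passed for the interaction (3 higher and 4 lower at an unadjusted p under 0.05, and 0 by DESeq2).

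Of the genes of procollagen hydroxylation, folding and export, 11 of 18 in NC cells and 9 of 18 in siPdcd5 cells passed as higher with TGF-β1 and none as lower, as none was at an unadjusted p under 0.05 or by DESeq2. Plod2, which hydroxylates telopeptide lysines for cross-links, rose by 1.63 ± 0.10 (adjusted p = 1.0e-07), Plod1 by 0.94 and the prolyl hydroxylase subunit P4ha2 by 0.84 in NC cells. With the knockdown 2 of 18 were lower without TGF-β1 and 1 with it, P4ha1, which fell by 0.57 ± 0.11 (adjusted p = 0.0166). At an unadjusted p under 0.05 edgeR had 6 lower without TGF-β1 and 7 with it, and 0 higher in either. DESeq2 called 2 and 3 lower. Of the propeptide processing genes 4 of 5 were higher in each TGF-β1 comparison, among them in NC cells the enhancer Pcolce2 (0.84), the protease Furin (0.83) and the C-proteinase Bmp1 (0.60), and none passed with the knockdown in edgeR (1 at an unadjusted p under 0.05 in each comparison, and 0 by DESeq2).

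Of the lysyl oxidase genes that cross-link fibrils, 2 of 4 were higher in NC cells, Lox by 1.74 ± 0.14 (adjusted p = 7.4e-07) and Loxl2 by 0.57, and 1 of 4 in siPdcd5 cells. At an unadjusted p under 0.05 in edgeR, and also by DESeq2, 2 were higher in NC cells and 2 in siPdcd5 cells. Loxl2 fell by 0.48 ± 0.11 (adjusted p = 0.0491) with the knockdown under TGF-β1, and 1 of 4 was lower without it. Among collagen receptors 1 of 6 was higher and 2 lower in NC cells, the integrin subunit Itgb1 at 0.68, the collagen receptor kinase Ddr1 at -0.48 and Itga10 at -0.42. In siPdcd5 cells 1 was higher and 1 lower, and with the knockdown 2 were lower without TGF-β1 and none with it in edgeR, where 5 had an unadjusted p under 0.05 and DESeq2 called 2 lower. Of the collagenases and gelatinases 2 of 4 were higher and 1 lower in each TGF-β1 comparison. In NC cells these were Mmp14 (1.17), Mmp2 (0.63) and the collagenase Mmp13 (-1.44). Mmp14 alone passed in edgeR as lower with the knockdown under TGF-β1 (-0.40 ± 0.09, adjusted p = 0.0428). There 2 of 4 were lower at an unadjusted p under 0.05 and 2 by DESeq2. None of the 4 passed with the knockdown without TGF-β1 in edgeR, at an unadjusted p under 0.05 or by DESeq2.

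Proteins that bind fibrils moved in both directions, 5 of 10 higher and 3 lower in each TGF-β1 comparison. In NC cells Postn, the matricellular protein periostin, rose by 4.59 ± 0.18 (adjusted p = 1.5e-09), Bgn by 2.35 and Aspn by 2.34, while the small proteoglycans Prelp and Dcn and Ogn were at -3.17, -2.08 and -0.37. Bgn averaged 0.732 CPM in NC and 3.77 in NC + TGF-β1, Aspn 1.16 and 5.90, and Prelp 3.91 and 0.421. The changes of Bgn, Aspn and Prelp thus rest on low counts. In siPdcd5 cells Prelp averaged 1.38 CPM without and 0.263 with TGF-β1. It entered the test only through the groups without TGF-β1, where it was high, so its call as lower is tied to that selection. With the knockdown 1 of the 10 was higher and 3 lower both without and with TGF-β1. Under TGF-β1 Dcn, decorin, rose by 0.88 ± 0.10 (adjusted p = 5.4e-04), while Ogn fell by 0.90 ± 0.10 (adjusted p = 3.3e-04) and Fmod, fibromodulin, fell by 0.89 ± 0.16 (adjusted p = 0.0140). Of the fibril-associated collagens, Col16a1 rose (0.54) and Col12a1 fell (-0.35) of 4 in NC cells, 1 was higher in siPdcd5 cells, and 1 was lower in each knockdown comparison, Col16a1 falling by 0.52 ± 0.10 under TGF-β1 (adjusted p = 0.0208). Without single libraries the 10 knockdown calls of the 52 genes without TGF-β1 dropped to 5 (NC replicate 2 or 3, or siPdcd5 replicate 3) or 6 (NC replicate 1), and the 8 with TGF-β1 to 4, 2 and 2 without siPdcd5 + TGF-β1 replicates 1, 2 and 3.

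**Figure D4:**
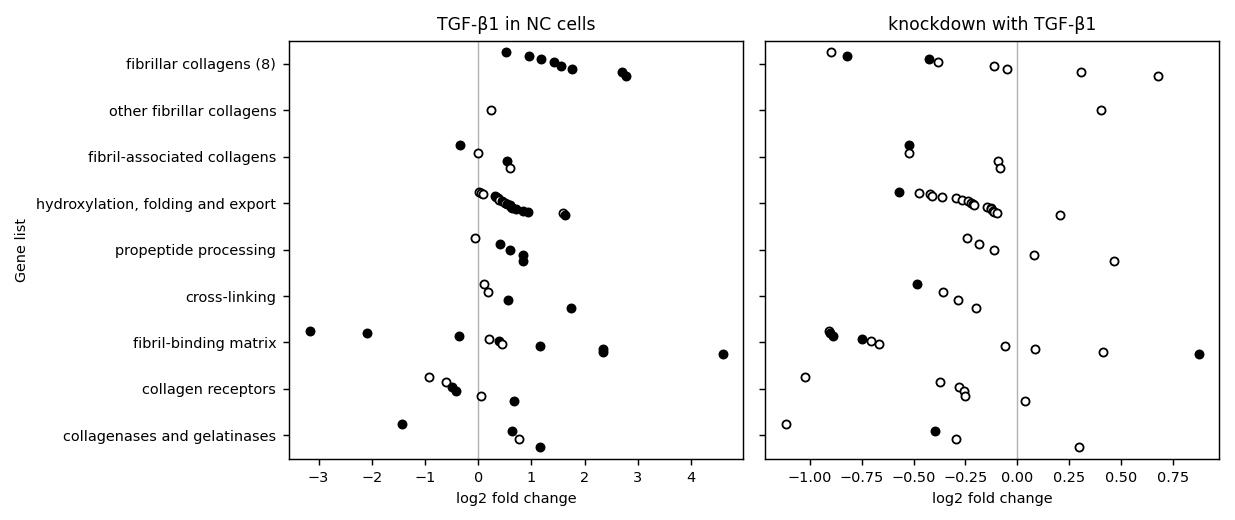
Log2 fold change (x axis) of each tested gene of the fibrillar collagens and of the 8 pathway lists (rows) for TGF-β1 in NC cells (left) and the knockdown with TGF-β1 (right), filled where the adjusted p was under 0.05. On the left the 18 genes of hydroxylation, folding and export all lie right of 0, and 11 are filled. The x axes differ in range.

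Fibroblasts are the usual source of these collagens, so their markers are given beside them. Of 9 fibroblast markers Tcf21 and Meox2 had no count in any library, Lum had at most 1, and the list summed to 130 to 149 CPM in NC and 184 to 206 in siPdcd5. With TGF-β1 it summed to 69.8 to 89.0 CPM in NC cells and 89.3 to 98.3 in siPdcd5 cells, Dcn and Pdgfrb giving the larger part. The sum was lower with TGF-β1, where the collagens were higher, but its members did not move alike. Dcn averaged 95.7 CPM in NC and 22.6 in NC + TGF-β1 and fell, while Pdgfrb, a growth factor receptor, averaged 15.2 and 30.1 CPM and passed as higher (0.98 ± 0.22, adjusted p = 0.00702). In siPdcd5 cells Pdgfrb did not pass with TGF-β1 (0.48, adjusted p = 0.167). Twist2 averaged 21.5 CPM in NC and 18.0 in NC + TGF-β1, and Pdgfra 5.90 and 4.61. Both were thus lower with TGF-β1, but neither passed in any comparison. Dpt passed as higher in both TGF-β1 comparisons (adjusted p = 0.00744 and 0.0013), at 0.0503 and 0.750 CPM in NC cells and 0.199 and 1.86 CPM in siPdcd5 cells, levels near or below the floor without TGF-β1. It thus entered the test only through groups with TGF-β1, and its calls are tied to that selection. Of the 5 smooth muscle and myofibroblast markers Acta2 carried the sum, which ran from 528 to 579 CPM in NC and 248 to 302 in siPdcd5, and with TGF-β1 from 1468 to 1585 CPM in NC cells and 781 to 810 in siPdcd5 cells, the same order of groups as for Col1a1. That order is thus the order of Acta2. Tagln averaged 5.45 CPM in NC and 8.01 in NC + TGF-β1 and passed in no comparison. Cnn1, Myh11 and Des had at most 4, 4 and 10 counts in any library. The 3 alveolar type 2 markers summed to at most 0.461 CPM, the 3 endothelial markers to at most 2.47, the 3 leukocyte markers to at most 11.96, and the 3 ciliated markers to 190 to 328 CPM, nearly all of it Tubb4b, with Foxj1 at most 5 counts. The part of these, the club and the epithelial markers in the collagen results was not tested.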

How the data were processed

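QuantSeq 3′ mRNA-seq libraries of C22 cells were read from a single end. Alignment was with Bowtie2, and Bedtools counted both unique and multiple alignments. The authors deposited 1 table of raw counts per gene symbol for each library. The submitters' processing notes name mm10, Bowtie2 and edgeR. Quantile normalization, which the study's methods name, is not in the deposited counts. Because multiple alignments were counted, genes with near-identical copies may share reads.

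From these counts, log2 fold changes and p-values were computed with edgeR 4.0.16 (R 4.3.3): filterByExpr, TMM factors, and the quasi-likelihood test over the 4 groups and all 12 libraries, with Benjamini-Hochberg adjustment over 12425 genes and calls at adjusted p under 0.05. Levels are CPM, and log2 CPM uses a prior count of 2. The knockdown, TGF-β1 and interaction comparisons share groups. The 8 members and the gene lists were chosen with earlier results of these data known. Pathway genes were named as the 3 largest rises and 3 largest falls per list that passed for TGF-β1 in NC cells, and the 2 and 2 for the knockdown with TGF-β1. Positions came from GENCODE (GRCm38) and promoters from RefSeq (GRCm38.p6). The script was tested on simulated data. Alternatives were upper-quartile and RLE scaling, quantile normalization with limma 3.58.1, DESeq2 1.42.0, other filters, 6 libraries alone, a replicate block, prior counts of 0.5 and 5, and leaving out each library. Intervals and floors from counts cover counting error only.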

Additional observations from a re-analysis of the deposited data

How the results depend on the processing

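All 8 members passed for TGF-β1 in NC and in siPdcd5 cells under every alternative that tested them (20 settings, 19 for Col11a1), the weakest adjusted p being 0.0293 for Col3a1. The knockdown calls depended on the setting. With TGF-β1 the members called were 2 in the reported analysis, 1 with quantile normalization and limma-trend, 4 with DESeq2, 1 with at least 10 counts in every library, 0 with the 6 libraries compared alone, and 1 to 4 when 1 library was left out. Without TGF-β1 they were 5, and 3 to 6 when 1 library was left out, 3 without NC replicate 2. The pathway genes called with TGF-β1 were 8, against 5 with quantile normalization, 13 with DESeq2, 2 with 6 libraries, and 2 to 10 with 1 library left out. Without TGF-β1 they were 10, and 5 to 11 with 1 library left out. Over all genes the knockdown called 427 without TGF-β1, 671 with DESeq2 and 167 to 667 with 1 library left out, and 192 with TGF-β1, 433 with DESeq2, 44 with 6 libraries and 73 to 322 with 1 library left out. In both comparisons NC + TGF-β1 replicate 2 gave the highest count when left out (667 and 322), the lowest being without NC replicate 2 (167) and without siPdcd5 + TGF-β1 replicate 3 (73). The interaction called 0 genes, 13 with DESeq2 and 0 to 2 with 1 library left out. The cause was not tested.

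Signs turned only for values that passed no test, when 1 library was left out: the knockdown with TGF-β1 for Col27a1 (-0.15 to 0.13), and the interactions of Col1a1 (-0.0314 to 0.12), Col5a2 (-0.12 to 0.16) and Col5a3 (-0.18 to 0.048). Col11a1 was not tested with at least 10 counts in every library, nor for the knockdown without TGF-β1 in a fit of those 6 libraries alone. The Col1a1 to Col1a2 ratio kept its direction with prior counts of 0.5 and 5.

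The replicate numbers carry no stated meaning. Same-numbered libraries correlated in their deviations from the group means by 0.17, 0.17 and 0.01 for TGF-β1 in NC cells, by 0.03, 0.03 and -0.06 in siPdcd5 cells, by 0.02, -0.03 and 0.08 for the knockdown without TGF-β1 and by -0.04, -0.32 and -0.06 with it, so over all genes tested, which the fit uses, the numbers were not taken to pair libraries. Over the 9128 genes with a mean log2 CPM of 3 or more, TGF-β1 in NC cells gave 0.32, 0.31 and 0.15, with 6 of 6 libraries correlating best with their own number (5 of 6 over all genes), while the other 3 comparisons each had at least 1 negative correlation and 0 to 3 of 6. That is a hint from the data that the NC and NC + TGF-β1 libraries may be paired. With the replicate block the members called were 8, 8, 5, 1 and 0, and over all genes 1687, 1731, 301, 107 and 0, for TGF-β1 in NC and siPdcd5 cells, the knockdown without and with TGF-β1, and the interaction.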
